A study of Danio rerio with 21 samples.

Results

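The hearts compared here were zebrafish ventricles 1 day after cryoinjury (1 dpi) and ventricles of fish that were not injured (control). The comparison was made on 3 arrays of 1 dpi hearts and 3 arrays of control hearts, 6 of the 21 arrays in the series, chosen by their labels alone. Each array carried the RNA of 5 pooled ventricles. The fish of both groups were adults of the TU strain, 10 to 11 months old, and those of the 1 dpi group had part of the ventricle frozen with a cold probe, while the fish of the control group kept intact hearts. The other 5 groups were hearts at 4 hours (4 hpi), 3, 7, 14 and 90 days after the same injury, again with 3 pools each, and those at 4 hpi and 3 dpi serve below to place 1 dpi in time. Of 75212 features on the array, where a feature is a set of probes along 1 transcript, 35783 had a log2 signal above 6 in at least 1 array and were tested. A single gene symbol was known for 12313 of them, which stand for 11687 genes.

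Cryoinjury kills muscle, vessels and connective tissue in the frozen area, and the dead tissue is cleared before it is replaced. In zebrafish the first days bring leukocytes into the wound, switch on genes of the epicardium, the sheet of cells around the heart, and start cell division, first in cells that are not muscle and later in surviving muscle cells near the wound. Healthy ventricular muscle lives mainly on fatty acids burned in mitochondria, and injured muscle is known to turn towards glucose. RNA of a whole ventricle mixes all of these cells, so fewer cells of a type and less RNA per cell cannot be told apart in any of the values below.

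Pools of the same group resembled each other more than pools of the 2 groups did. Across the tested features, the correlation between arrays was 0.963 to 0.969 among 1 dpi hearts and 0.965 to 0.975 among control hearts, against 0.858 to 0.883 between a 1 dpi and a control array. The median signal of the tested features was 6.93 to 6.98 in 1 dpi hearts and 6.75 to 6.79 in control hearts, a shift of more than 0.1 on the log2 scale. Over all features on the array the median was 5.16 to 5.18 in 1 dpi hearts and 5.15 to 5.18 in control hearts. The shift was thus seen only in the features kept by the signal limit. Counts of rises and falls depend on how the arrays are brought to a common scale. The median log2 difference over all tested features was 0.05, and the changes of gene groups are read beside it.

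At an FDR of 0.05 (limma, Benjamini-Hochberg adjustment over all tested features), 7872 features, or 22% of those tested, were higher at 1 dpi than in control hearts and 5916, or 16.5%, were lower. At an FDR of 0.001 these were 3642 (10.2%) and 2125 (5.94%), and with an FDR of 0.05 and a change of at least 1.6-fold they were 5374 (15%) and 3063 (8.56%). Rises made up 57.1% of the calls at an FDR of 0.05. After quantile normalization they made up 43.1%, and after centring every array on the median of the tested features 37.2%, so neither direction can be said to prevail. Both rescalings used the tested features alone, whose medians differed between the groups, while the medians of all features overlapped. Among genes with a single symbol, 3410 rose and 2638 fell, and the large changes were mostly rises: 150 genes were more than 8-fold higher and 5 more than 8-fold lower. Of all features with a single symbol, 28.8% were higher and 22.7% lower, the shares against which the counts of gene lists below are to be read. Genes near background in control hearts passed the signal limit mainly through injured hearts, so counts of rises in lists that hold such genes are descriptions. This holds also for lists below where it is not repeated. Features without any symbol made up 22976 of those tested, of which 4161 (18.1%) were higher and 3024 (13.2%) lower.

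The 10 largest rises included a pair of granulins, both interleukin-11 genes, a galectin and the surface protease gene adam8a. The granulin gene grna.2 (granulins are secreted growth factors that are abundant in macrophages) had signals of 12.40, 10.91 and 12.13 in 1 dpi hearts, against 3.89, 4.25 and 3.94 in control hearts, the largest difference of all genes at 7.79 (SE 0.59, adjusted p = 2.6e-08). Its neighbour in name, grna.1, had 10.69, 10.79 and 11.35 in 1 dpi hearts, against 4.37, 5.33 and 4.75 in control hearts. The 2 granulins had no overlap between the groups, and a probe that reads both copies was not looked for.

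Interleukin-11 signals through gp130 and Jak/Stat3, a pathway that zebrafish need for regeneration. Signals of il11b were 9.90, 10.92 and 11.38 in 1 dpi hearts, against 3.99, 3.86 and 3.91 in control hearts (log2 difference 6.81, SE 0.35, adjusted p = 5.3e-10). For il11a they were 10.92, 8.72 and 11.03 in 1 dpi hearts, against 4.85, 4.67 and 4.54 in control hearts (5.54, SE 0.83, adjusted p = 4.4e-05), with the second pool of 1 dpi well below the other 2. Both genes stood near the low end of the array in every control pool and well above it in every pool at 1 dpi.

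The remaining 6 of the 10 were si:ch211-113a14.15 (log2 difference 7.56), nppal (5.94), adam8a (5.49), olmf4l1 (5.49), si:dkey-102g19.3 (5.17) and the galectin gene lgals9l1 (5.05). The protease gene adam8a, which leukocytes use to shed surface proteins, had 10.64, 10.88 and 11.08 in 1 dpi hearts, against 5.70, 5.33 and 5.11 in control hearts. For si:ch211-113a14.15, the mean of its 3 tested features gave a smaller difference, 3.74, than the strongest feature. The control means of 6 of these 10 genes lay below the lowest median of any array, 5.14, where signals are near the background of the array, and their differences may understate the change.

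The largest fall was that of dgat2, whose enzyme carries out the last step of triglyceride synthesis. It had 6.41, 6.60 and 7.05 in 1 dpi hearts, against 10.69, 10.56 and 10.66 in control hearts, a 15.5-fold lower signal (log2 difference -3.95, SE 0.30, adjusted p = 2.1e-08). The gene of stearoyl-CoA desaturase, scd, which makes the unsaturated fatty acids of stored fat, followed the same course with 4.81, 5.19 and 5.05 in 1 dpi hearts, against 7.98, 7.75 and 8.50 in control hearts. For mstnb, which encodes myostatin, a brake on muscle growth, the values were 5.13, 4.29 and 4.77 in 1 dpi hearts, against 7.94, 8.35 and 7.81 in control hearts. All pools of 1 dpi lay below all control pools for the 3 genes, and the 1 dpi means of scd and mstnb lay near background.

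The other 7 of the 10 largest falls had log2 differences of -3.44 (leap2, an antimicrobial peptide), -3.24 (timp4.3, an inhibitor of metalloproteinases), -2.98 (fgf11a), -2.81 (inhbb, a subunit of activin), -2.81 (mtnr1ab, a melatonin receptor), -2.72 (sh3gl2a, an endophilin) and -2.60 (ppp1r27b). Of the 10 genes, 5 ended below the lowest array median at 1 dpi, and their falls may be understated too. The subunit gene inhbb had 5.74, 7.43 and 6.75 in 1 dpi hearts, against 9.20, 9.46 and 9.69 in control hearts. Its relative inhbaa, which also encodes an activin beta subunit, had 5.33, 6.26 and 5.70 in 1 dpi hearts, against 4.51, 4.82 and 4.65 in control hearts (2.15-fold, adjusted p = 0.00033). These 2 activin subunit genes thus differed in direction, and in both cases the pools did not overlap. The control values of inhbaa lay near background.

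**Figure D1:**
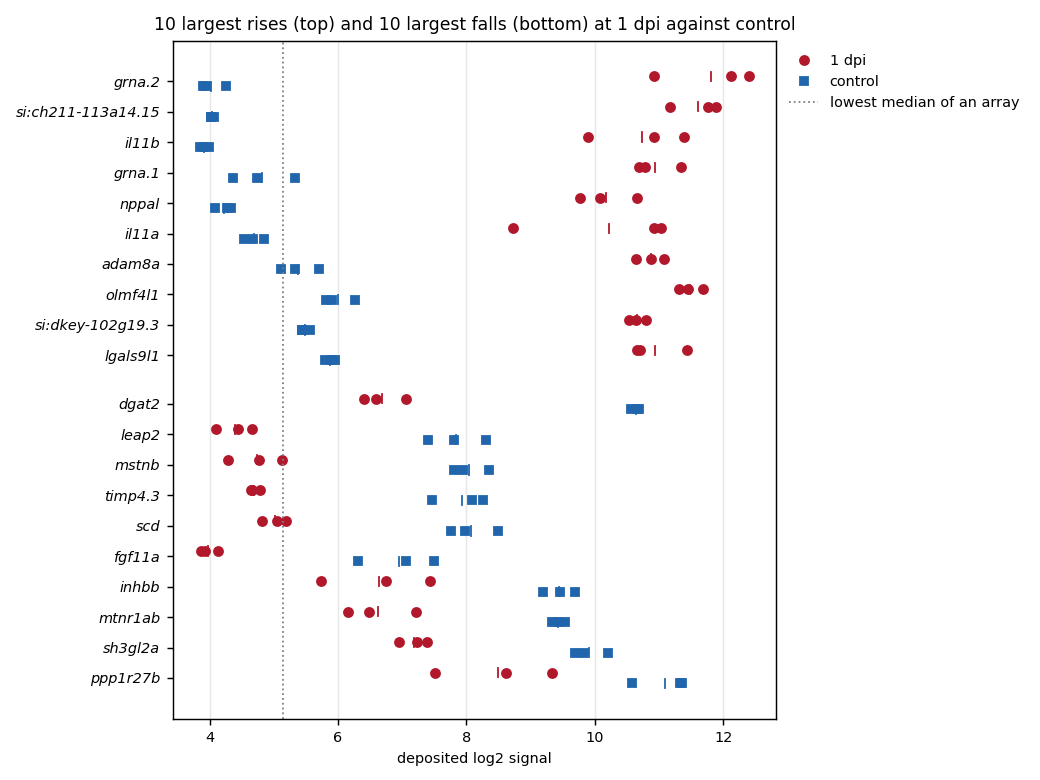
Deposited log2 signal (horizontal axis) of the 10 largest rises and the 10 largest falls at 1 dpi, with a circle for each 1 dpi pool, a square for each control pool, a short bar at each group mean and a dotted line at the lowest median of an array (5.14). The pools of the groups lie apart for every gene, as the choice of the genes required, and the second 1 dpi pool of il11a, at 8.72, is the value farthest from its group.

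General leukocyte genes had the highest median of the 34 lists. Of 37 tested genes of leukocytes in general (39 on the array), 35 rose and 0 fell, with a median log2 difference of 2.63. The control mean of 7 of the 37 lay below the lowest array median, so this count is a description. Actin regulators of blood cells led the list. The gene coro1a had 9.75, 10.05 and 10.35 in 1 dpi hearts, against 5.90, 6.25 and 6.23 in control hearts (15.2-fold), and plek, a platelet and leukocyte kinase substrate, had 9.06, 9.51 and 9.85 in 1 dpi hearts, against 5.63, 5.71 and 5.49 in control hearts. The exceptions were the invariant chain genes of class II antigen presentation, cd74a and cd74b, with differences of -0.66 and 0.14 that did not pass the test. For cd74a the pools were nevertheless apart, at 10.01, 9.64 and 10.55 in 1 dpi hearts, against 10.56, 10.75 and 10.87 in control hearts.

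Macrophage genes rose in 28 of 32 tested cases and 1 fell (median 2.49). For 9 of the 32 the control mean lay below the lowest array median, so the count is a description. The pore-forming protein gene mpeg1.1 had 10.40, 10.30 and 10.85 in 1 dpi hearts, against 7.07, 7.23 and 7.04 in control hearts (10.6-fold, adjusted p = 3.7e-09). The receptor of the macrophage growth factor, csf1ra, had 10.42, 10.40 and 10.72 in 1 dpi hearts, against 7.87, 7.83 and 7.84 in control hearts. Both were clearly measured in control hearts too, and rose by similar amounts in all pools. The largest rises after the granulins and lgals9l1 were those of the amino acid carrier gene slc7a7 (log2 difference 4.55) and the cathepsin S gene ctss2.1 (4.52). The gene that fell was arg2, an arginase of mitochondria, with 6.63, 8.39 and 6.89 in 1 dpi hearts, against 9.02, 9.52 and 9.91 in control hearts.

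Of 18 tested neutrophil genes, 16 rose and 0 fell (median 1.95). The control mean of 10 of the 18 lay below the lowest array median, so that many passed the signal limit through injured hearts and the count is a description. The oxidase subunit gene ncf1 had 8.78, 8.87 and 7.98 in 1 dpi hearts, against 4.65, 4.74 and 4.96 in control hearts, and csf3r, the receptor of the granulocyte growth factor, had 8.58, 8.45 and 8.68 in 1 dpi hearts, against 5.02, 4.83 and 5.17 in control hearts. Myeloperoxidase, mpx, had 6.83, 6.96 and 6.88 in 1 dpi hearts, against 4.68, 4.43 and 4.28 in control hearts. The lysozyme gene lyz had 5.16, 4.80 and 4.67 in 1 dpi hearts, against 4.79, 4.74 and 4.86 in control hearts, so that its groups overlapped near background (adjusted p = 0.93). Only 6 of 22 lymphocyte genes on the array passed the signal limit, of which 4 rose, and the T and B cell genes lck, zap70 and cd79a were not among the 6. Of 11 tested thrombocyte genes, 7 rose and 0 fell. These included the fibrinogen receptor genes itgb3a (log2 difference 3.18) and itga2b (1.62), whereas the receptor genes gp1bb and gp9 had differences of 0.21 and -0.16 that did not pass.

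Among 56 tested genes of inflammatory cytokines and the Jak/Stat pathway, 36 rose and 6 fell (median 1.18). For 10 of the 56 the control mean lay below the lowest array median, so this count is a description as well. Ligands led: after the interleukin-11 pair came the chemokine gene ccl34a.4, with 11.42, 11.78 and 11.64 in 1 dpi hearts, against 7.50, 7.38 and 7.73 in control hearts, and il1b, the founding interleukin of inflammation, with 7.46, 8.55 and 7.68 in 1 dpi hearts, against 4.29, 4.36 and 4.54 in control hearts. Receptors of the same family changed unequally. The shared signal transducer gp130, il6st, rose 2.4-fold (log2 difference 1.26, adjusted p = 1.2e-06) and lifrb rose 9.71-fold, but the receptor of interleukin-11 itself, il11ra, fell (log2 difference -0.43). Downstream, stat3 rose 1.94-fold and socs3b, the feedback inhibitor that Stat3 induces, had 9.88, 9.92 and 10.68 in 1 dpi hearts, against 6.99, 7.32 and 7.21 in control hearts. Of the transforming growth factors, tgfb1b rose (1.27) while tgfb2 (-0.75) and tgfb3 (-0.46) fell.

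Complement and clotting genes rose in 18 of 27 tested cases and fell in 3 (median 1.02), a description, as 7 of the 27 had control means below the lowest array median. The receptor of the complement fragment C5a, c5ar1, had 9.08, 9.41 and 9.73 in 1 dpi hearts, against 5.06, 4.65 and 4.71 in control hearts, and cfp, properdin, which stabilises the alternative pathway, had 10.05, 9.75 and 10.43 in 1 dpi hearts, against 5.89, 5.87 and 6.15 in control hearts. The clotting factor gene f10 was 2.6-fold lower at 1 dpi. One gene of the list was uneven: f13a1a.1, a subunit of the factor that cross-links fibrin, had 7.81, 5.12 and 7.30 in 1 dpi hearts, against 4.03, 3.97 and 4.15 in control hearts. Interferon response and antigen presentation genes rose in 26 of 37 tested cases with 0 falls (median 0.78), among them gbp1 (log2 difference 2.54), irf8 (2.94) and isg15 (1.35), while b2m, the common chain of class I molecules, had 10.75, 10.78 and 10.73 in 1 dpi hearts, against 10.77, 10.84 and 10.71 in control hearts. The control means of 10 of these 37 genes lay below the lowest array median, with the same limit on the count.

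Proteases and their inhibitors formed a mixed group, with 25 of 38 tested genes higher and 5 lower (median 1.27). This too is a description, as 7 of the 38 had control means below the lowest array median. The cathepsin genes ctsk (4.36-fold) and ctss2.1 rose, ctsf fell (log2 difference -0.41) and ctsll did not pass (0.39). The urokinase gene plaua, which activates plasmin, had 7.66, 8.02 and 8.35 in 1 dpi hearts, against 4.24, 4.12 and 4.08 in control hearts, and timp2b, an inhibitor of metalloproteinases, had 11.47, 11.70 and 11.34 in 1 dpi hearts, against 7.62, 7.46 and 7.53 in control hearts (15.7-fold). Among metalloproteinases, mmp9 (log2 difference 1.84) and mmp13a (2.05) rose and the fibroblast gelatinase mmp2 fell to 9.55, 8.97 and 9.29 in 1 dpi hearts, against 10.03, 10.14 and 10.18 in control hearts. The list of annexins and actin machinery, which shares coro1a and other genes with the leukocyte list, held 35 rises and 4 falls among 51 tested genes (median 0.94).

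**Figure D2:**
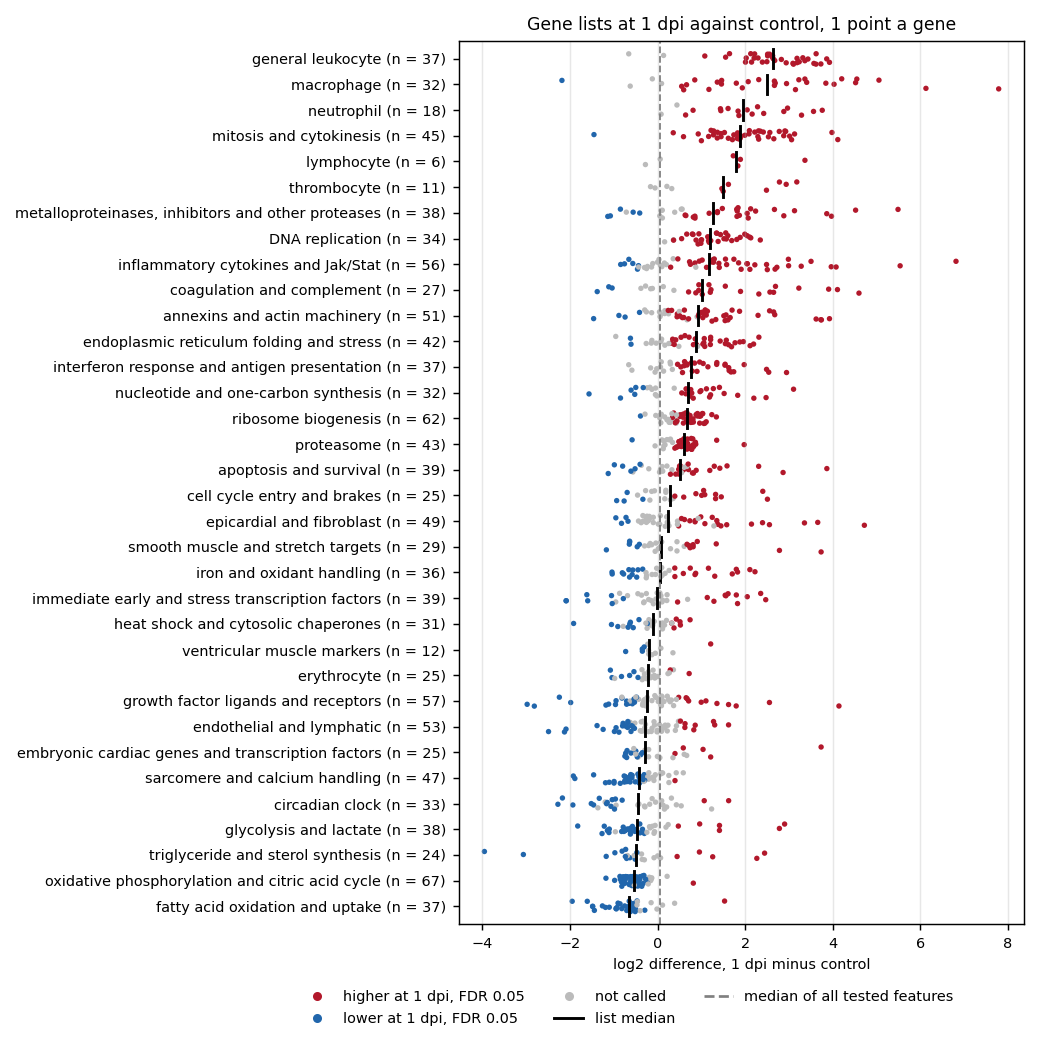
Log2 difference between 1 dpi and control hearts (horizontal axis) for the tested genes of 34 lists, 1 point a gene, red where higher and blue where lower at an FDR of 0.05, with the median of each list as a black bar and the median of all tested features (0.05) as a dashed line. The list medians run from 2.63 for general leukocyte genes to -0.64 for fatty acid oxidation.

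Genes of cell division were higher at 1 dpi. Of 45 tested genes of mitosis and cytokinesis (59 on the array), 44 rose and 1 fell, with a median log2 difference of 1.89. The control mean of 37 of the 45 lay below the lowest array median, so most of these genes passed the signal limit through injured hearts, and their count is given as a description. The cyclin-dependent kinase of mitosis, cdk1, had 9.04, 8.32 and 9.30 in 1 dpi hearts, against 4.66, 4.83 and 4.83 in control hearts (log2 difference 4.11, SE 0.29, adjusted p = 1.0e-08). The proliferation marker MKI67 had 8.97, 8.29 and 9.21 in 1 dpi hearts, against 4.97, 4.80 and 4.75 in control hearts, and the transcription factor of mitotic genes, foxm1, had 6.94, 6.06 and 7.14 in 1 dpi hearts, against 3.76, 3.83 and 3.92 in control hearts. In all 3 the second pool of 1 dpi was the lowest, and it was so for the mean of the list as well, at 6.76, 6.17 and 7.07 in 1 dpi hearts, against 4.75, 4.73 and 4.65 in control hearts. The gene that fell was racgap1, which helps to cut daughter cells apart, with 7.17, 6.36 and 6.58 in 1 dpi hearts, against 8.44, 8.49 and 7.53 in control hearts. It had 2 tested features, of which the other was higher at 1 dpi, so its direction is not settled.

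Replication genes rose in 32 of 34 tested cases with 0 falls (median 1.2). The control mean of 16 of the 34 lay below the lowest array median, so this count too is a description. They included subunits of the replicative helicase (mcm4, 4.29-fold), primase (prim1, 4.37-fold), the polymerase clamp (pcna, 2.61-fold) and the histone loader (chaf1b, 5.08-fold). The clamp gene pcna was well measured in control hearts, with 10.07, 9.87 and 10.20 in 1 dpi hearts, against 8.62, 8.75 and 8.62 in control hearts. Enzymes that make DNA building blocks moved with them: tyms, thymidylate synthase, had 9.23, 8.81 and 9.61 in 1 dpi hearts, against 5.71, 6.42 and 6.20 in control hearts, and tk1, thymidine kinase, rose 5.57-fold. Over the whole list of nucleotide and one-carbon synthesis, 19 of 32 tested genes rose and 6 fell (median 0.69), and the falls included adss2 (log2 difference -1.56) and adsl (-0.84), both in the making of AMP.

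Regulators upstream of replication were more divided, with 11 of 25 tested genes higher and 4 lower (median 0.29). The kinase gene cdk2 (log2 difference 2.51) and the transcription factor genes e2f8 (2.40) and e2f2 (1.46) rose. The cyclin gene ccnd1, which starts the cycle, had a difference of 0.19 (adjusted p = 0.43), and the inhibitor gene cdkn1a had 6.64, 7.06 and 6.67 in 1 dpi hearts, against 6.46, 6.72 and 6.31 in control hearts. Both overlapped between the groups. The pocket protein gene rbl2, a brake of resting cells, fell (log2 difference -0.93, adjusted p = 0.00071), while rb1 (1.32) and rbl1 (1.01) of the same family rose. Which cells of the ventricle carried the division genes was not tested, and leukocyte genes rose in the same pools, as given above.

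The machinery of protein synthesis and breakdown rose by smaller amounts. Ribosome biogenesis genes were higher in 45 of 62 tested cases and lower in 1 (median 0.67), with imp4 (log2 difference 1.34), wdr3 (1.24) and heatr1 (1.11) leading. Proteasome genes were higher in 32 of 43 tested cases and lower in 1 (median 0.60). The catalytic subunits of the immunoproteasome stood above the rest: psmb12 rose 3.94-fold and psmb9a rose 2.55-fold, while the constitutive subunit gene psmb5 had a difference of 0.34 that did not pass (adjusted p = 0.082).

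Folding enzymes of the endoplasmic reticulum rose in 29 of 42 tested cases and 2 fell (median 0.87). The disulfide isomerase gene pdia4 had 10.72, 10.73 and 10.81 in 1 dpi hearts, against 8.28, 8.63 and 8.42 in control hearts (4.97-fold, adjusted p = 2.8e-09), the chaperone gene hsp90b1 had 10.62, 10.63 and 10.58 in 1 dpi hearts, against 8.44, 8.49 and 8.56 in control hearts, and the calreticulin gene calr3a rose 4.57-fold. The pools were close to each other for all 3. The 2 genes that fell, chac1 (log2 difference -0.60) and trib3 (-0.62), are induced by stress of this compartment. The factor gene xbp1 had a difference of 0.08 and ddit3, a factor of stress-induced death, one of -0.26, and neither passed. Cytosolic chaperones gave 6 rises and 9 falls among 31 tested genes (median -0.11). After quantile normalization there were 3 rises and 10 falls, with centred arrays 2 rises and 13 falls, and without the first pool of 1 dpi 5 falls. The small heat shock protein genes of muscle fell, with cryabb at 6.61, 7.58 and 7.57 in 1 dpi hearts, against 8.99, 9.07 and 9.44 in control hearts, and hspb8 at -0.91 on the log2 scale.

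Genes of the contracting muscle fell, but unevenly. Of 47 tested genes of the sarcomere, its attachments, ion channels and calcium handling, 31 fell and 1 rose (median -0.43). Filament genes differed by small amounts, some of which passed the test. The troponin gene tnnc1a (log2 difference -0.58), the myosin gene myh7l (-0.35), the troponin gene tnnt2a (-0.35) and mybpc3, which binds myosin (-0.36), fell without overlap of the pools. The myosin light chain gene myl7 had 11.76, 11.79 and 11.85 in 1 dpi hearts, against 11.96, 11.99 and 12.05 in control hearts (adjusted p = 0.099), and tpm4a, a tropomyosin, had 11.63, 11.73 and 11.64 in 1 dpi hearts, against 11.67, 11.73 and 11.75 in control hearts. Of the 12 tested ventricular muscle markers, 4 fell and 1 rose (median -0.20). With arrays centred on their median 8 fell and 1 rose, and after quantile normalization 3 fell and 2 rose (median -0.15). In the same list the ventricular myosin gene carried as myh7 had a log2 difference of -0.73 in its stronger feature, while its other tested feature was higher at 1 dpi.

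The largest falls of the sarcomere and calcium list were in hcn4 and kcnj11. The pacemaker channel gene hcn4 had 8.10, 9.19 and 8.60 in 1 dpi hearts, against 10.69, 10.40 and 10.55 in control hearts (3.79-fold lower), and kcnj11, the pore of the channel that ATP closes, had 6.58, 7.04 and 6.91 in 1 dpi hearts, against 8.70, 8.75 and 8.73 in control hearts. The titin cap gene tcap (log2 difference -1.46), myom1a of the M band (-1.19), and jph2, which holds the calcium release units together (-0.99), fell as well. Channel genes did not move alike: scn5lab fell (-0.61), while kcnh6a (0.59, adjusted p = 0.051), kcnj2a (0.43) and cacnb2a (-0.31) did not pass. No overlap occurred for hcn4 or kcnj11.

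Among 25 tested embryonic cardiac genes and cardiac transcription factors, 9 fell and 5 rose (median -0.29). The stretch gene ankrd1a rose 13.3-fold, with 8.04, 8.97 and 8.41 in 1 dpi hearts, against 4.64, 4.59 and 4.99 in control hearts. The natriuretic peptide gene nppb, a marker of wall stress, had 12.76, 12.93 and 13.01 in 1 dpi hearts, against 11.58, 11.71 and 11.78 in control hearts, and its relative nppa overlapped between the groups (log2 difference 0.35, adjusted p = 0.084). The cardiac factor genes nkx2.5 (log2 difference -0.69), tbx20 (-0.60), tbx5a (-0.49) and gata4 (-0.38) fell. Of 29 tested smooth muscle genes and stretch targets, 9 rose and 6 fell (median 0.07, and -0.11 with arrays centred on their median). These shares, 31% and 20.7%, were near the 28.8% and 22.7% of all features with a single symbol.

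Genes of energy metabolism fell in most cases. Of 67 tested genes of the respiratory chain and the citric acid cycle, 58 fell and 1 rose (median -0.53), most of them by less than 2-fold. The complex I gene ndufs1 had 10.38, 10.28 and 10.24 in 1 dpi hearts, against 11.22, 11.33 and 11.29 in control hearts (1.97-fold lower, adjusted p = 2.0e-07), and cs, citrate synthase, had 12.10, 12.13 and 12.09 in 1 dpi hearts, against 12.56, 12.53 and 12.55 in control hearts. Small as these steps were, the pools did not overlap in 62 of the 67 genes with 1 dpi on the low side, where 22.9% of all tested features did so. The gene that rose was uqcrfs1, an iron-sulfur protein of complex III, whose pools overlapped, at 10.76, 10.46 and 10.68 in 1 dpi hearts, against 10.50, 10.05 and 8.90 in control hearts (adjusted p = 0.049). Its other 2 tested features were lower at 1 dpi, and the rise was not called with arrays centred on their median.

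Fatty acid oxidation was the list with the lowest median, -0.64: 30 of 37 tested genes fell and 1 rose. The 3 largest falls were those of transcription regulators. The receptor gene pparaa had 6.96, 7.47 and 7.02 in 1 dpi hearts, against 9.03, 9.13 and 9.13 in control hearts (3.86-fold lower), esrra fell 3.04-fold and the coactivator gene ppargc1a, which drives the building of mitochondria, fell 2.79-fold. Of the enzymes, acat1 (log2 difference -1.48) and cpt1b, which admits fatty acids to mitochondria (-1.19), fell, as did acadm (-0.59). The single rise was that of fabp4a, a fatty acid binding protein of vessels and macrophages, with 11.68, 11.53 and 11.72 in 1 dpi hearts, against 9.54, 10.30 and 10.51 in control hearts, whereas the muscle form fabp3 fell slightly (-0.29).

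In the synthesis of fat and sterols, 11 of 24 tested genes fell and 5 rose (median -0.49). Against the falls of dgat2 and scd stood plin2, which coats fat droplets, with 7.47, 7.13 and 8.29 in 1 dpi hearts, against 5.26, 5.24 and 5.07 in control hearts, and dgat1b, whose enzyme does the same step as that of dgat2, with 5.93, 7.00 and 5.81 in 1 dpi hearts, against 4.96, 5.25 and 4.74 in control hearts. The 2 genes of the same step thus moved in opposite directions.

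Glycolysis showed a similar split within families. Of 38 tested genes, 22 fell and 6 rose (median -0.46). For hexokinase, the first enzyme, hk2 had 8.39, 8.64 and 8.45 in 1 dpi hearts, against 5.66, 5.67 and 5.81 in control hearts, while hk1 had 10.49, 10.46 and 10.49 in 1 dpi hearts, against 11.24, 11.22 and 11.29 in control hearts. For enolase, eno1b had 7.63, 7.86 and 8.27 in 1 dpi hearts, against 4.92, 5.12 and 5.01 in control hearts (7.46-fold). The control pools of hk2 and eno1b lay near the median of the array, and those of hk1 well above it.

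The muscle enolase gene eno3 fell 1.53-fold, the nerve form eno2 rose 2.66-fold, and eno1a overlapped between the groups (log2 difference -0.08). Of the pyruvate kinases, pkmb fell 2.4-fold and pkma overlapped. A phosphofructokinase gene of muscle, pfkma, fell to background with 4.95, 4.89 and 5.00 in 1 dpi hearts, against 7.01, 6.71 and 6.58 in control hearts, while pfkfb3, whose enzyme makes the activator of that step, rose 2.67-fold. The lactate dehydrogenase gene ldha had a difference of -0.18 that did not pass (adjusted p = 0.22).

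**Figure D3:**
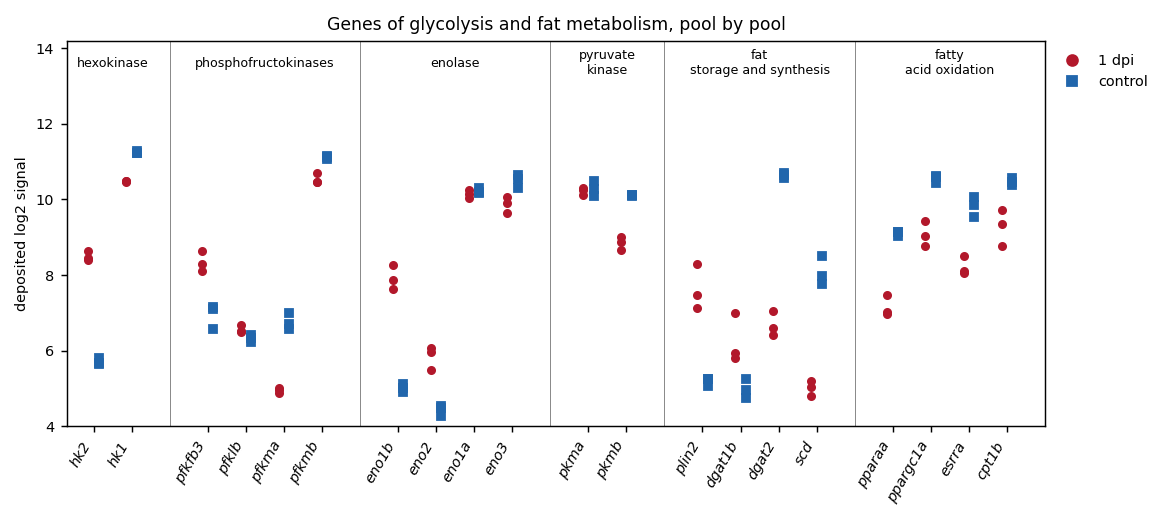
Deposited log2 signal (vertical axis) of genes of glycolysis and fat metabolism, with circles for the 3 pools of 1 dpi hearts left of squares for the 3 pools of control hearts. In each of the hexokinases, enolases and fat synthesis genes at least 1 member is higher (hk2, eno1b, plin2) and at least 1 lower (hk1, eno3, dgat2) at 1 dpi, and signals of different genes are not comparable with each other.

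Genes of the epicardium and of the matrix rose in part. Of 49 tested genes of epicardium and fibroblasts, 19 rose and 4 fell (median 0.24). The control mean of 7 of the 49 lay below the lowest array median, with the same limit on the count. Fibronectin, fn1a, a matrix protein of the wound, had 11.39, 11.24 and 11.36 in 1 dpi hearts, against 6.48, 6.53 and 6.82 in control hearts, the smallest adjusted p among the genes described here (26.4-fold, 4.4e-12). Hyaluronan synthase, has1, rose 12.6-fold and vcanb, versican, which binds hyaluronan, rose 10.2-fold, with 9.03, 9.95 and 10.05 in 1 dpi hearts, against 5.82, 6.46 and 6.68 in control hearts. The growth factor gene mdka rose 5.87-fold.

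Regulators of the epicardium differed in direction. The factor gene wt1b had 9.10, 9.26 and 9.22 in 1 dpi hearts, against 6.52, 6.59 and 7.29 in control hearts, and aldh1a2, which makes retinoic acid in activated epicardium and endocardium, had 10.80, 10.79 and 10.99 in 1 dpi hearts, against 9.48, 9.49 and 9.47 in control hearts. The lineage markers tcf21, with 8.33, 7.88 and 7.76 in 1 dpi hearts, against 8.59, 8.68 and 8.85 in control hearts, and tbx18 (log2 difference -0.82, adjusted p = 0.011) fell. Collagens were divided too: col12a1a (log2 difference 2.14) and col1a1a (0.86) rose, the basement membrane genes col4a1 (-0.67) and col4a2 (-0.95) fell, and postnb, periostin, overlapped between the groups (-0.37).

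Vessel genes fell more often than they rose, with 18 falls and 8 rises among 53 tested endothelial and lymphatic genes (median -0.28). The defining markers of endothelium differed little: cdh5, the cadherin of vessel junctions, had 11.20, 11.25 and 11.39 in 1 dpi hearts, against 11.15, 11.33 and 11.09 in control hearts, and kdrl had 10.40, 10.55 and 10.51 in 1 dpi hearts, against 10.72, 10.75 and 10.86 in control hearts (adjusted p = 0.067). Large falls were those of lyve1a, a receptor of hyaluronan, with 6.60, 6.16 and 5.33 in 1 dpi hearts, against 8.39, 8.20 and 8.96 in control hearts, and of plvapa, a protein of vessel pores (log2 difference -2.12). Among vessel growth factors vegfc rose 3.08-fold, while vegfaa fell 1.93-fold and vegfd fell (log2 difference -1.38).

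Of 57 tested growth factor ligands and receptors, 17 fell and 11 rose (median -0.23). These shares were 29.8% and 19.3%, beside 22.7% lower and 28.8% higher of all features with a single symbol. Leaving out 1 pool gave 12 to 17 falls, and arrays centred on their median gave 25 falls and 9 rises. The largest rise was that of hbegfb, a ligand of the epidermal growth factor receptor, with 7.89, 8.49 and 9.07 in 1 dpi hearts, against 4.28, 4.33 and 4.42 in control hearts, whereas its copy hbegfa had a difference of -0.43 that did not pass (adjusted p = 0.08). The insulin-like growth factor gene igf2b rose 2.56-fold and bmp6 rose 3.47-fold. Of the binding proteins of insulin-like growth factors, igfbp1a (-0.31), igfbp6a (-0.04) and igfbp6b (-0.81) did not pass. The gene igfbp2a fell, with 5.08, 5.54 and 4.58 in 1 dpi hearts, against 7.34, 7.30 and 7.29 in control hearts, as did igfbp5b (log2 difference -1.18).

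Genes of apoptosis and survival rose in 21 of 39 tested cases and fell in 6 (median 0.50). After quantile normalization 16 rose and 7 fell, and with arrays centred on their median 14 rose and 9 fell. The inflammatory caspase gene caspa, the zebrafish counterpart of caspase-1, had 8.63, 9.43 and 9.61 in 1 dpi hearts, against 5.08, 5.64 and 5.34 in control hearts, and the death receptor gene fas rose 7.28-fold. The executioner gene casp3b had a difference of 0.05 that did not pass, while casp9 (log2 difference 1.59) and casp8 (0.64) rose. The falls were in genes of mitochondria, such as endog (-1.12) and aifm1 (-0.98).

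Of 39 tested immediate early and stress factors, 11 were higher and 7 lower (median -0.01), shares near or below those of all features with a single symbol. With arrays centred on their median 9 were higher and 10 lower. The AP-1 gene fosl1a had 8.50, 8.88 and 9.15 in 1 dpi hearts, against 5.50, 6.68 and 7.31 in control hearts, and junba had 10.00, 10.56 and 10.63 in 1 dpi hearts, against 6.97, 8.32 and 8.49 in control hearts. The receptor gene nr4a3, also induced within minutes in many cells, had 6.32, 7.44 and 8.81 in 1 dpi hearts, against 7.98, 10.00 and 10.83 in control hearts (log2 difference -2.08, adjusted p = 0.019), so that its groups overlapped. The control pools of these 3 genes spread over more than 1 log2 unit. In both groups the first pool was the lowest and the third the highest for each gene. Each 1 dpi pool of nr4a3 lay below the control pool of the same number, but the main fit did not pair pools by number.

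Iron and oxidant genes gave 13 rises and 11 falls among 36 tested (median 0.07, and -0.12 with arrays centred on their median). Haem oxygenase, hmox1a, rose 3.48-fold, hp, haptoglobin, which binds free haemoglobin, rose 4.31-fold, and the ferritin gene fthl28 rose 4.67-fold, while the transferrin receptor gene tfr1a (log2 difference -1.04) and both superoxide dismutase genes sod1 (-0.65) and sod2 (-0.77) fell. Of 25 tested erythrocyte genes 6 fell and 2 rose (median -0.21), a share of falls near the 22.7% of all features with a single symbol, and slc4a1a and alas2 overlapped between the groups.

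Clock genes fell in 13 of 33 tested cases and rose in 2 (median -0.45). The output gene dbpa had 6.25, 7.49 and 6.42 in 1 dpi hearts, against 8.98, 8.71 and 8.97 in control hearts, per1b had 7.25, 8.03 and 6.52 in 1 dpi hearts, against 9.21, 9.24 and 9.15 in control hearts, and nr1d1 had 6.55, 8.80 and 5.92 in 1 dpi hearts, against 9.06, 9.57 and 9.47 in control hearts. The control pools lay closer together than those of 1 dpi, and the second pool of 1 dpi was the highest of its group for each of these genes. The activators clocka (0.43) and bmal1a (0.21) had differences that did not pass. The hour at which hearts were taken was not given in the sources used here.

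The tissue label was checked against defining markers. All 6 markers of ventricular muscle passed the signal limit, 3 of them fell, and their mean log2 signal was 11.59 to 11.65 in 1 dpi hearts and 11.89 to 11.93 in control hearts. The 4 macrophage markers averaged 9.40 to 9.72 in 1 dpi hearts and 6.26 to 6.29 in control hearts, the 4 neutrophil markers 6.49 to 6.97 in 1 dpi hearts and 4.72 to 4.73 in control hearts, and the 3 endothelial markers 10.36 to 10.55 in 1 dpi hearts and 10.44 to 10.55 in control hearts. Of the liver markers, fabp10a was not on the array, and apoa2 and serpina1 did not pass the limit. The 3 epicardial markers averaged 8.24 to 8.51 in 1 dpi hearts and 7.93 to 8.24 in control hearts. They moved in opposite directions, as wt1b rose while tcf21 and tbx18 fell. Of the 3 skeletal muscle markers, mylpfa and tnnt3b lay at background. The other, ckma, had 12.26, 12.13 and 12.13 in 1 dpi hearts, against 12.60, 12.65 and 12.62 in control hearts. It fell without overlap of the pools (log2 difference -0.45, adjusted p = 0.0013). Markers of atrial and outflow tissue were read in both groups, but whether the pools held such tissue was not tested. The atrial gene myh6 had 10.00, 11.00 and 9.28 in 1 dpi hearts, against 9.35, 9.01 and 9.93 in control hearts. The outflow marker elnb had 5.95, 5.65 and 4.42 in 1 dpi hearts, against 4.25, 4.82 and 4.16 in control hearts, which lay near background. For acta2 of smooth muscle the values were 9.98, 9.51 and 8.99 in 1 dpi hearts, against 8.51, 9.18 and 8.96 in control hearts. All 3 genes overlapped between the groups. Another smooth muscle marker, myh11a, rose without overlap, with 8.51, 8.57 and 8.53 in 1 dpi hearts, against 7.69, 7.69 and 7.79 in control hearts (adjusted p = 0.0027), the 1 of 3 outflow markers that passed. The part of changed cell numbers in the gene changes above was not tested.

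How 1 dpi differs from the hours before it was tested directly, without control hearts. Between 1 dpi and 4 hpi, 6943 features (19.4%) were higher and 5379 (15%) lower at 1 dpi at an FDR of 0.05. Of the cell division genes, 44 of 45 mitosis genes and 32 of 34 replication genes were higher at 1 dpi than at 4 hpi, with the same limit from the signal filter as above. The kinase gene cdk1 averaged 8.89 at 1 dpi and 4.45 at 4 hpi, close to its control mean of 4.77. General leukocyte genes were higher at 1 dpi in 33 of 37 tested cases and macrophage genes in 23 of 32, but neutrophil genes in 5 of 18, with 3 lower. The neutrophil shares were not far from the 19.4% and 15% of all tested features. Shares among features with a single symbol were not computed for this contrast, here or for the cytokine list below. Respiratory chain genes were lower at 1 dpi than at 4 hpi in 45 of 67 cases and genes of fatty acid oxidation in 27 of 37.

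The largest rises over 4 hpi were those of grna.2 (log2 difference 6.07), si:ch211-217k17.11 (5.06), fn1a (5.02), asgr1c.1 (4.87) and the histone gene hist1h2a5 (4.77). For fn1a the signals were 11.39, 11.24 and 11.36 at 1 dpi, against 6.48, 6.37 and 6.08 at 4 hpi. The largest falls were those of lepb, a leptin (-4.86), c7b, a late complement component (-4.25), map1lc3cl (-3.74), csdc2b (-3.62) and si:dkey-23n7.10 (-3.49). The leptin gene lepb had signals at 4 hpi of 10.58, 10.23 and 10.39, which compare with 5.26, 5.97 and 5.41 at 1 dpi and with 6.38, 6.22 and 7.27 at 3 dpi. At 1 dpi it was thus far below its level at 4 hpi, and its 3 pools were above the control values of 4.19, 4.15 and 4.07. Cytokine and Jak/Stat genes were lower at 1 dpi than at 4 hpi in 18 of 56 cases, il1b among them (log2 difference -2.05, adjusted p = 0.00037), and higher in 11. All tested features were lower in 15% and higher in 19.4% of cases, so the share of rises was near that of all features.

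Fewer features separated 1 dpi from 3 dpi: 973 (2.72%) were higher and 455 (1.27%) lower at 3 dpi. The 455 became 184 to 617 when 1 pool was left out, with 184 without the third and 262 without the second pool of 1 dpi, and 269 and 282 without the second and the third pool of 3 dpi. Epicardial and fibroblast genes took part, with 31 of 49 tested genes higher at 3 dpi and 1 lower. The largest rises at 3 dpi were those of lum, lumican (log2 difference 3.79), mfap2 (3.29), f13a1a.2 (2.93), postnb (2.93) and igfbp6a (2.57). The proteoglycan gene lum was near background until then, with 3.95, 4.03 and 3.82 at 4 hpi, 4.14, 4.03 and 4.09 at 1 dpi, then 7.72, 7.87 and 8.05 at 3 dpi. The markers tcf21 (1.5) and tbx18 (1.14), low at 1 dpi, were higher at 3 dpi.

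The largest falls at 3 dpi were those of gda, guanine deaminase (-2.80), ednrbb, an endothelin receptor (-2.79), LOC100536946 (-2.78), tmem163a (-2.44) and pkp1b, a desmosome protein (-2.42). For gda the signals were 5.04, 5.04 and 6.41 at 3 dpi, against 7.99, 8.47 and 8.44 at 1 dpi. For pkp1b a single pool carried most of the difference, with 5.03, 5.27 and 5.11 at 3 dpi, against 5.97, 10.06 and 6.63 at 1 dpi, and likewise for ednrbb, with 4.00, 4.21 and 4.41 at 3 dpi, against 5.36, 9.36 and 6.29 at 1 dpi. That pool was the second in both cases.

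**Figure D4:**
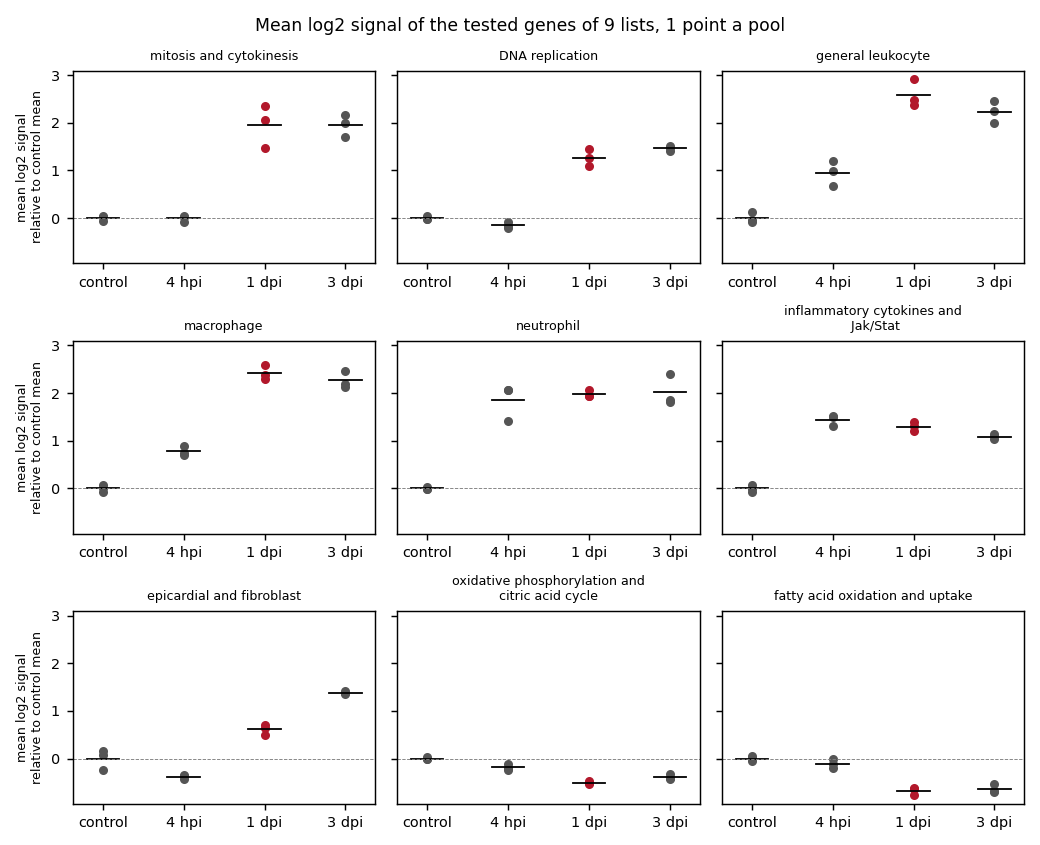
Mean log2 signal of the tested genes of 9 lists in each pool, relative to the mean of the control pools (vertical axis), in control hearts and at 4 hpi, 1 dpi (red) and 3 dpi, with a bar at each group mean. Mitosis and replication lists lie near or below the control level at 4 hpi and above it at 1 dpi. Neutrophil and cytokine lists are raised at 4 hpi already, as are general leukocyte and macrophage lists, which lie higher still at 1 dpi.

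**Figure D5:**
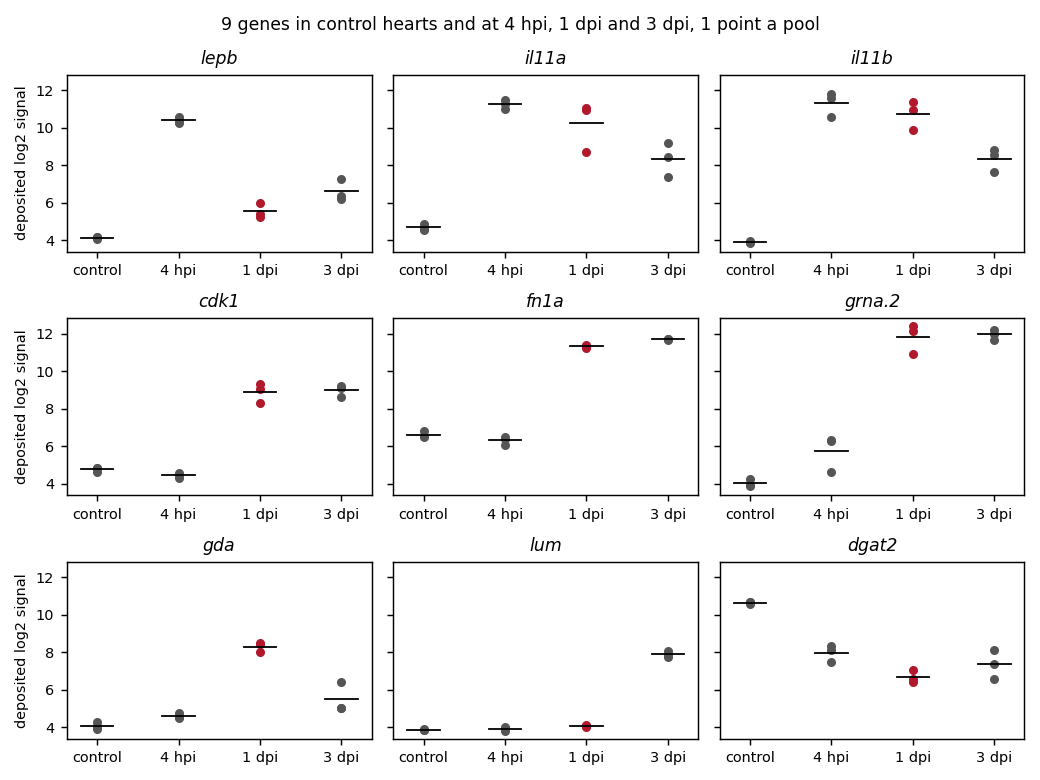
Deposited log2 signal (vertical axis) of 9 genes in each pool of control hearts and at 4 hpi, 1 dpi (red) and 3 dpi, with a bar at each group mean. Signals of gda are high at 1 dpi and those of lepb at 4 hpi, cdk1, fn1a and grna.2 are high at 1 and 3 dpi, and lum is high at 3 dpi.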

How the data were processed

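The authors hybridised total RNA of 3 pools per group to Affymetrix Zebrafish Gene 1.0 ST arrays and summarised the probes in Partek by RMA, a robust averaging over arrays, with an adjustment for GC content. The deposited values are log2 signals, 1 per feature and array, and were used as they are. Every column matched a sample label. The array annotation gave 20806 features a single symbol, 855 several and 53551 none. Features above a log2 signal of 6 in at least 1 of 21 arrays were tested with 1 linear model of the 7 groups (limma 3.58.1 in R 4.3.3, lmFit and eBayes, 14 residual degrees of freedom). Contrasts were 1 dpi minus control, 1 dpi minus 4 hpi and 3 dpi minus 1 dpi, and p values were adjusted by Benjamini-Hochberg over the 35783 tested features. The feature with the highest mean stood for a gene. Of 545 genes with several tested features, 7 had features called in both directions. Calls were made at an adjusted p below 0.05. The fit was tested on simulated data. Tables and plots came from Python 3.11.15 with matplotlib 3.10.9.

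Genes named are the 10 largest rises and falls among called genes with non-overlapping pools, the 5 largest of each in the other contrasts, and members of 34 gene lists and their paralogs. Members and lists were chosen with earlier results of these data known. Other settings tried were no or a stricter signal filter, centred arrays, quantile normalization, the 6 arrays alone, a variance trend, the replicate numbers as blocks, the mean over features of a gene and leaving out each pool. Precision is set by how few pools there were: 3 against 3 cannot give an exact p below 0.1. The p values lean mainly on the spread of a feature over all 7 groups (14 residual degrees of freedom). Variances shared between features add less (3.28 prior degrees of freedom). The model takes the spread of a feature as equal in all groups, yet for il11a the SD was 1.30 at 1 dpi and 0.15 in control hearts. The signals carry no detection call, and a mean below the array median was taken as near background. The promoter search that had been planned was not run.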

Additional observations from a re-analysis of the deposited data

Results flagged for a closer look

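For 12 of the 20 largest changes against control hearts, the effect at 1 dpi differed from that at 4 hpi in the direct test between both times (limma, adjusted p below 0.05). Values are log2 differences, 1 dpi minus 4 hpi. Among the rises they were 6.07 for grna.2, 3.80 for si:ch211-113a14.15, 2.41 for grna.1, 1.86 for adam8a, 1.61 for olmf4l1 and 3.99 for lgals9l1. Among the falls they were -1.30 for dgat2, -2.17 for mstnb, -1.18 for timp4.3, -1.35 for scd, -1.02 for fgf11a and -1.59 for ppp1r27b. The 20 genes were chosen for their size at 1 dpi, which favours a larger difference from control at that time, so the shared direction of the 12 is no result. Among the other 8, the log2 difference from control was 5.94 at 1 dpi and 6.80 at 4 hpi for nppal, 6.81 and 7.39 for il11b, 5.54 and 6.56 for il11a, -2.81 and -3.13 for inhbb, and -2.81 and -3.06 for mtnr1ab. The change was larger at 1 dpi for si:dkey-102g19.3 (5.17 and 4.11), leap2 (-3.44 and -2.40) and sh3gl2a (-2.72 and -2.47). None of the 8 differed between 1 dpi and 4 hpi at an adjusted p below 0.05. Groups of 3 pools are too small for a test of single outlying pools.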

How the results depend on the processing

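The direction of all 20 largest changes and their side of the threshold were kept in each of 14 alternatives, with adjusted p values of at most 0.00535 (ppp1r27b). These genes were chosen for size and for pools that do not overlap, so leaving out a pool could not reverse a direction. Counts moved more. Without the signal filter all 75212 features were tested, and 11380 were lower and 9123 higher at 1 dpi at an FDR of 0.05. In the main fit 5916 were lower and 7872 higher of 35783 tested, so these counts have unlike totals. With arrays centred on the median of the tested features, 9508 were lower at an FDR of 0.05, 3759 at 0.001 and 5182 with 1.6-fold, and 8 ventricular muscle markers and 14 embryonic cardiac genes fell. With the 6 arrays of the comparison alone, 1498 features were higher and 407 lower at an FDR of 0.001, and 296 were lower at 3 dpi than at 1 dpi, where fewer arrays leave fewer residual degrees of freedom. Leaving out 1 pool gave 1295 to 1589 lower features at an FDR of 0.001, with 1375 and 1402 without pool 1 and pool 3 of 1 dpi and 1295 and 1369 without control pool 2 and control pool 3. It gave 5 to 9 lower heat shock genes (5 without pool 1 of 1 dpi) and 184 to 617 features lower at 3 dpi than at 1 dpi (262 and 184 without pool 2 and pool 3 of 1 dpi, 269 and 282 without pool 2 and pool 3 of 3 dpi). The cause was not tested for the filter, the 6 arrays alone or the left-out pools. Replicate numbers are shared by the groups, and the paper speaks of 3 independent experiments. Deviations of same-numbered pools correlated at 0.20, 0.14 and 0.03, and those of pools with different numbers at -0.20 to 0.09. Whether the numbers mark pairs was not tested, and the main fit did not pair them. With the replicate block 7847 features were higher and 6001 lower, which moved no count by more than 1.5 times. Signals near the array median are limited by background.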
